A study of Mus musculus with 2 samples.

Results

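Integrins are the cell surface receptors that tie cells to the extracellular matrix, each an alpha chain paired with a beta chain. Laminins are three-chained matrix proteins, 1 alpha, 1 beta and 1 gamma chain each, that polymerise beneath epithelia and around muscle into the basement membrane, and nidogens link that laminin network to collagen IV. In a developing ureter, an epithelial tube (the urothelium) rests on such a membrane inside a mesenchyme that forms smooth muscle and fibrous layers. The genes described here were all array probes, controls aside, named as an integrin alpha or beta chain, a laminin chain with a single-digit name, or a nidogen. This gave 53 probes of 39 genes, among 39429 probes of 31693 genes in all. Of the 39 genes, 33 had a probe that passed the filter on dim signals, and all 33 were well above background in every channel. The laminin beta gene Lamb1 carries an older name on the array and so lies outside the rule.

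Total RNA of ureters dissected at stage E14.5, mid-gestation, from mice of the NMRI strain was compared on 2 two-colour arrays, each carrying 1 RNA labelled Bmp4cKO against 1 RNA labelled control. The Bmp4cKO genotype was Tbx18(cre/+);Bmp4(fl/fl), in which cre recombinase from the Tbx18 locus is meant to delete Bmp4, a secreted growth factor, in the mesenchyme around the tube, and which therefore also has only 1 intact Tbx18 copy. The control genotype was Tbx18(+/+);Bmp4(fl/?), without cre but with at least 1 floxed Bmp4 allele. The array of replicate 1 was labelled female and had the control RNA in red (AlexaFluor647) and the Bmp4cKO RNA in green (AlexaFluor555), and that of replicate 2 was labelled male with the dyes exchanged. The labels do not say how many embryos gave each RNA, so p-values cannot be read as measuring the spread between embryos. They rest on the spread between these 2 arrays together with a variance shared over all genes, which weighs most.

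The targeted gene went against its label. Bmp4 had normalized intensities of 75598 and 61938 in the RNAs labelled Bmp4cKO (replicates 1 and 2) and of 9191 and 4719 in those labelled control, 10.4-fold higher in the former (log2 3.38 ± 0.48, SD, n = 2 arrays, limma adjusted p = 0.016). Whether its probe, on chromosome 14 from 47003391 to 47003450 in mouse build mm9, lies inside the deleted stretch is not given, and outside it the probe would check nothing. The authors' deposited table gives this probe the opposite sign, at -8.16 and -13.9 as signed folds. All ratios below are on the log2 scale and put the RNA labelled Bmp4cKO over its control, so "higher" means in the direction of Bmp4, and every sign turns if the labels are exchanged. Tbx18 was also higher, by 0.97 ± 0.17 (limma adjusted p = 0.040), with 1 intact copy in the labelled mutant.

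On replicate 2 the sex-linked transcripts differed between the channels although both are labelled male: the Y-linked Ddx3y had a processed signal of 2720 in the RNA labelled control while in the other channel it did not stand well above background. The 2 probes of Xist, which is transcribed from the inactive X chromosome of females, had signals there of 1464 and 2120 under the Bmp4cKO label and of 4.31 and 85.2 under the control label, so these signals differed together with the genotype labels on that array. None of the member genes lies on chromosome X or Y. Each channel had 69.3% to 74.6% of its probe spots well above background, and none of the member probes was saturated or marked as an outlier. Over all 21978 genes measured, the arrays' log2 ratios correlated at r = 0.48 (Spearman's rho 0.31), across genes that are not independent replicates.

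Markers of the labelled tissue were present, and several cell type lists moved with the labels. Of all genes, 0.887% were called higher and 1.02% lower, at a limma adjusted p under 0.05. All 14 urothelial markers listed were measured, 7 of them called higher and none lower (median log2 1.13), with summed intensities of 244997 and 230602 in the RNAs labelled Bmp4cKO and 118725 and 116029 in those labelled control. Of 9 smooth muscle markers measured, 3 were higher and none lower (median 1.13; sums 106662 and 137278 against 75892 and 66724). Of 9 markers of kidney nephron and collecting duct, 5 were lower and none higher (median -1.06; sums 16547 and 13988 against 27081 and 32838), and of 9 nerve and Schwann cell markers 3 were lower (median -0.58; sums 12454 and 12695 against 17307 and 17143). Of 4 skeletal muscle markers measured, Myog was lower at -0.89. In whole tissue, more cells of a type and more RNA per cell cannot be told apart. The part of these lists in the values below was not tested.

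Promoter sequences of 4 members show what lies before genes with some of the larger ratios in either direction (Lamb3 and Itga8 higher, Itga4 and Itga9 lower), which were picked with their values known. Of the 39 genes, 24 were matched to RefSeq promoters of build GRCm38.p6; Lamc3, Lama1 and Itgb4 were not. Each is the 250 bases before a matched start of the gene, the farthest upstream where several were matched. Whether that is the gene's main start was not checked. The bases are read 5′ to 3′ along the gene, with matches to the searched motifs in capitals, where AGAC is GTCT on the other strand.
Lamb3, chr1:193301744-193301993, plus strand: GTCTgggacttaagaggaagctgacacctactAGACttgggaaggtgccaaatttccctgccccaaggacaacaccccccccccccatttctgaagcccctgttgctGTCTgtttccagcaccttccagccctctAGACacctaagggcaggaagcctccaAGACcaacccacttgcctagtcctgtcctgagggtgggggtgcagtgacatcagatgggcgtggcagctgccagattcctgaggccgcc
Itga8, chr2:12301945-12302194, minus strand: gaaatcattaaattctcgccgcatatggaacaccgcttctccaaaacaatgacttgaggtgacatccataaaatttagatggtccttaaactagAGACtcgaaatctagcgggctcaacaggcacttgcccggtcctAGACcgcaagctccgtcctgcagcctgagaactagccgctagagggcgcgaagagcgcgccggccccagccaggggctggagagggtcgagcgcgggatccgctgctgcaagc
Itga4, chr2:79255176-79255425, plus strand: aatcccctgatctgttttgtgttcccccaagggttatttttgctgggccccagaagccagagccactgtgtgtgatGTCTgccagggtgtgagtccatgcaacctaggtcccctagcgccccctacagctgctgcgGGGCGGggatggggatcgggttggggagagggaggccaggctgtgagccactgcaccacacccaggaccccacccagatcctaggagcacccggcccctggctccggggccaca
Itga9, chr9:118711442-118711691, plus strand: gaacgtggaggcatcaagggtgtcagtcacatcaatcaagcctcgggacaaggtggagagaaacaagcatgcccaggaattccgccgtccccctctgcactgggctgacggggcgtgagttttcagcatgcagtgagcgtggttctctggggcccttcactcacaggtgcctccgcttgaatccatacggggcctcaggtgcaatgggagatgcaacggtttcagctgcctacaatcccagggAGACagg
Both strands were searched for 7 motifs. Among growth factor response motifs these were the SMAD core, spelled GTCT, and the longer SMAD site of GC-rich form, spelled GGCGCC. Of general promoter elements they were the GC box, GGGCGG, and the start element known as the TATA box, TATAAA. For factor families of epithelium and stroma they were the AP-1 motif TGANTCA, then for GATA factors AGATAA, and for Grainyhead-like factors the motif AACCNGTT. None of these motifs is contained in another. GTCT stood 5 times before Lamb3, at 250, 218, 143, 115 and 89 bases upstream of the start, 156 and 113 bases upstream of Itga8, 174 upstream of Itga4 and 7 upstream of Itga9. The short GTCT occurred in 82.9% of all 32841 promoters of this length, and in 25 of the 27 promoters of these 24 genes. A GC box stood 114 bases before Itga4, a motif found in 32.7% of all promoters and in 9 of the 27. The other motifs were in 6.75% (AP-1), 9.59% (the GC-rich SMAD site), 9.99% (GATA), 1.79% (Grainyhead-like) and 12.4% (TATA box) of all promoters, and in 1, 2, 1, 0 and 0 of the 27. These matches are letters in a window and not sites shown to be bound.

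Among the 33 measured members, 1 rose and 1 fell in the test over all genes. Lamc3 was higher, against 195 of all 21978 genes (0.887%), and Lama1 was lower, against 225 of all genes (1.02%). The same pair were the only members at least 2-fold apart on both arrays, in a background of 0.578% of genes higher and 0.619% lower. By direction alone, 12 members were higher on both arrays (28.2% of all genes were), 12 were lower on both (30.6% of all genes) and 9 pointed opposite ways. At an unadjusted limma p under 0.05, before any correction for the number of genes, 8 members were higher (7.15% of all genes were) and 5 lower (7.37% of all genes). The members' median log2 ratio was -0.01, as for all genes, while their median size of change was 0.22 against 0.12 for all genes. These sizes were not matched for brightness: all 33 members were well above background in every channel, which the filter did not require.

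**Figure D1:**
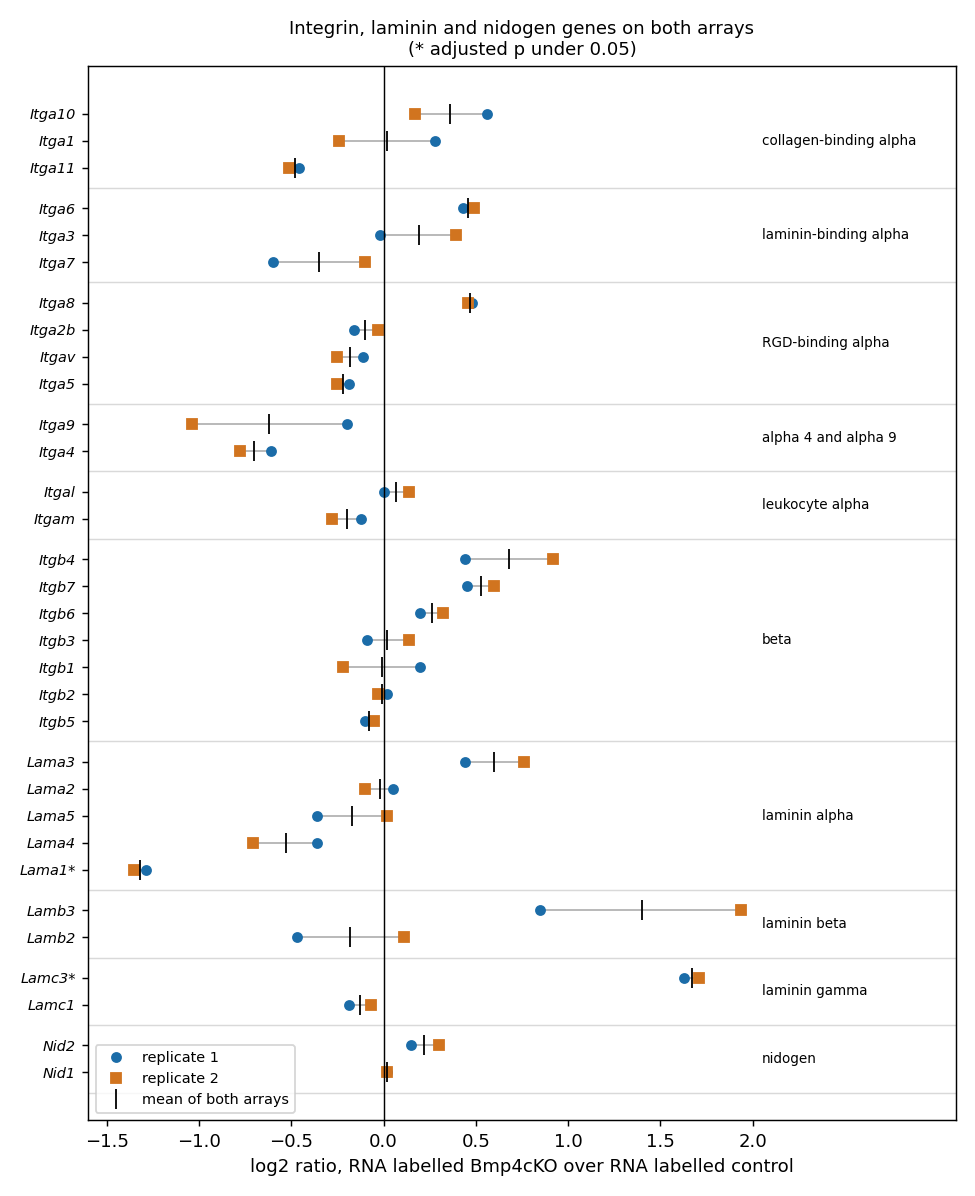
Log2 ratio (RNA labelled Bmp4cKO over control) for the measured genes reported here, ordered by role, with 1 point per array and a bar for the mean of the 2 arrays. Lamc3 (1.63 and 1.71) and Lama1 (-1.29 and -1.35) lie apart from the line of no change on both arrays, Lamb3 lies at 0.85 and 1.94, and most integrins lie near 0.

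The laminin gamma chain gene Lamc3 had intensities of 1862 and 2567 in the RNAs labelled Bmp4cKO and of 601 and 784 in those labelled control. Both RNAs labelled Bmp4cKO were above both controls. Its log2 ratios of 1.63 and 1.71 gave a mean of 1.67 ± 0.06 (SD, n = 2 arrays; 95% confidence interval 1.37 to 1.97), 3.19-fold higher (limma adjusted p = 0.019). The Lamc3 probe covers chromosome 2 from 31801996 to 31802055 (mm9, as are all probe positions here; the position within exons was not analysed). The authors' deposited table gives signed folds of -3.30 and -3.67, opposite in sign and similar in size. The call was lost with median centring in place of loess (limma adjusted p = 0.30) and with no normalization (adjusted p = 1). The log2 ratio lay between 1.66 and 1.80 in the 13 alternatives tested, most of which reuse the main ratio of its only probe.

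Lama1, an alpha chain of embryonic basement membranes that is also made by developing kidney tubules, had intensities of 2180 and 2895 in the RNAs labelled Bmp4cKO and 5349 and 7403 in those labelled control. Both controls were the higher. The log2 ratios were -1.29 and -1.35, a mean of -1.32 ± 0.04 (95% confidence interval -1.62 to -1.03), 2.50-fold lower (limma adjusted p = 0.023). The probe lies on chromosome 17 from 68171924 to 68171983, and the authors' deposited table gives 2.55 and 2.57. This call too was lost with median centring (limma adjusted p = 0.30) and without normalization (adjusted p = 1). Of 9 kidney markers, 5 were called lower: Gdnf at -2.15, Wnt9b at -1.97, Wt1 at -1.34, Ret at -1.20 and Lhx1 at -1.06. Not called were Pax8 (-0.78), Wnt11 (-0.34), Pax2 (-0.14) and Six2, which was at 1.21 and -0.99 on the arrays. The part of the kidney list in the Lama1 value was not tested.

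The genes Lama3 and Lamb3 encode an alpha and a beta chain of the epithelial laminin found at hemidesmosomes, the junctions that anchor basal epithelial cells. Neither passed the test, and both were higher on both arrays. Lamb3 had the largest mean after Lamc3 and the widest spread of any member, with intensities of 884 and 1412 in the RNAs labelled Bmp4cKO and 489 and 367 in those labelled control. The groups did not overlap, but the arrays gave log2 ratios of 0.85 and 1.94, replicate 2 the higher, with a mean of 1.40 ± 0.77 (95% confidence interval 0.71 to 2.09, limma adjusted p = 0.089). The authors' deposited table gives -2.05 and -4.77.

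Lama3 stood at 2124 and 2350 against 1565 and 1385, again without overlap, for a log2 ratio of 0.60 ± 0.23 (limma adjusted p = 0.13). A dimmer Lama3 probe gave 0.90. Beside these chains, 7 of the 14 urothelial markers were called higher, among them Upk1b (3.72), Upk3a (2.48), Upk2 (2.41), Pparg (2.27), Upk1a (2.25) and Krt19 (1.41). Of the markers not called, Krt5 (0.06), Trp63 (0.04) and Epcam (0.14) lay nearest to 0. The part of the urothelial list in the chain values was not tested. The calls of Upk1b (limma adjusted p = 0.052), Upk2 (0.069) and Upk1a (0.075) were lost with a robust prior variance.

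The remaining laminins had smaller ratios. Lama4, an alpha chain of vessel and muscle basement membranes, had 23035 and 22028 in the RNAs labelled Bmp4cKO against 29634 and 35922, lower on both arrays at -0.53 ± 0.24 (limma adjusted p = 0.17). Limma called none of 9 endothelial markers, and their median was 0.34, with Sox17 at 0.66, Cldn5 at 0.62, Pecam1 at 0.19 and Emcn at 0.03. At an unadjusted limma p under 0.05, 5 of the 9 were higher (7.15% of all genes were). The part of the endothelial list in the Lama4 value was not tested. Lama5, the broadly distributed epithelial alpha chain and a marker given for this gene set, had 10254 and 22253 in the RNAs labelled Bmp4cKO and 13155 and 21975 in those labelled control. Its replicates differed more than its groups, and the ratios were -0.36 and 0.02.

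Lama2, an alpha chain of muscle and nerve, was at -0.02 ± 0.11 by its brighter probe and 0.25 by the other. The widespread beta chain Lamb2 was at -0.18 ± 0.41 with opposite signs on the arrays, and the widespread gamma chain Lamc1 at -0.13 ± 0.09. The gene outside the rule, Lamb1, was at -0.21 ± 0.01 (limma adjusted p = 0.53). Of the nidogens, Nid1 had 22067 and 27815 against 21687 and 27418 and a ratio of 0.02, although its 3 probes ran from -0.23 to 0.02, and Nid2 was at 0.22 ± 0.11. Thus Lamc1, Lamb1 and the nidogens, the chains and linkers common to many basement membranes, had 95% confidence intervals that include 0, from -0.50 at the lowest to 0.53 at the highest.

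**Figure D2:**
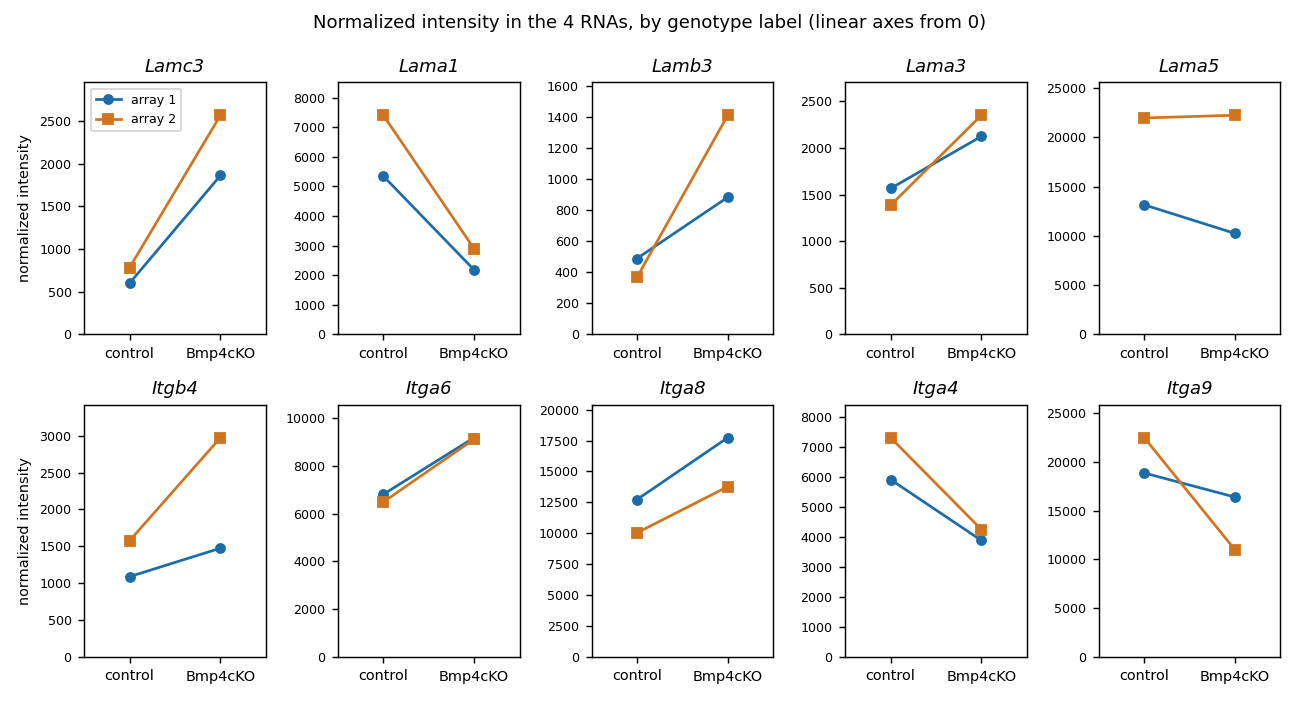
Normalized intensity (y axes, linear from 0, with an offset of 50 included) of 10 members in each of the 4 RNAs, by label (x axis), with the RNAs of 1 array joined by a line. The lines of Lamc3 and Lama1 run apart in opposite directions without overlap of the labels, while for Itgb4 and Lama5 the labels overlap. Replicate 2 was brighter under both labels for Itgb4 and Lama5, and for Lama5 the arrays also differed in direction (-0.36 and 0.02).

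No integrin passed the test. Of 21 measured integrin genes, 6 were higher on both arrays, 9 were lower on both and 6 had opposite signs, with a median of -0.01 (28.2% of all genes were higher on both arrays and 30.6% lower). By limma's unadjusted p under 0.05, 4 were higher and 3 lower (7.15% and 7.37% of all genes). Their means ran from -0.70 for Itga4 to 0.68 for Itgb4.

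Among laminin receptors, Itgb4, which pairs with the Itga6 product in hemidesmosomes, had intensities of 1474 and 2973 in the RNAs labelled Bmp4cKO and 1088 and 1576 in those labelled control. The labels overlapped, because replicate 2 was brighter in both, while each array had the RNA labelled Bmp4cKO higher, at 0.44 and 0.92. The mean was 0.68 ± 0.34 (95% confidence interval 0.27 to 1.08, limma adjusted p = 0.13), and the authors' deposited table gives -1.34 and -1.99. Itga6 stood at 9188 and 9124 against 6811 and 6489, with both RNAs labelled Bmp4cKO above both controls and a ratio of 0.46 ± 0.04 (limma adjusted p = 0.16). Itga3, the other main epithelial laminin receptor chain, was at -0.02 and 0.39 on the arrays, and Itga7, a laminin receptor chain of muscle, at -0.35 ± 0.35. Of 11 other laminin receptors and hemidesmosome partners, limma called none, also at an unadjusted p under 0.05, with a median of 0.16. The largest were Sdc4, a syndecan, at 0.54 ± 0.69 and Dst, which links hemidesmosomes to keratin filaments, at 0.28 ± 0.30.

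Of the chains that read the RGD peptide in fibronectin, vitronectin and related ligands, Itga8 had the highest ratio. It is known from the mesenchyme of the developing kidney, where its product binds nephronectin. It had 17739 and 13774 in the RNAs labelled Bmp4cKO and 12724 and 10037 in those labelled control. Both RNAs labelled Bmp4cKO were above both controls, and the 2 arrays gave nearly the same ratio, a mean of 0.47 ± 0.02 (95% confidence interval 0.17 to 0.76, limma adjusted p = 0.15). The authors' deposited table gives -1.38 and -1.39. Npnt, the nephronectin gene, which was picked after its value was seen, was at -0.77 ± 0.23 (limma adjusted p = 0.072), and was called lower with plain background subtraction (-0.86, adjusted p = 0.047) and with a trend in the prior (adjusted p = 0.026). The fibronectin receptor chain Itga5 was at -0.22 ± 0.05, Itgav at -0.18 ± 0.10 and the platelet chain Itga2b at -0.10 ± 0.09.

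Itga4 and Itga9 encode related alpha chains whose ligands include Vcam1 and, for Itga9, tenascin C. Itga4 had 3880 and 4244 in the RNAs labelled Bmp4cKO and 5910 and 7308 in those labelled control, without overlap, and had the lowest ratio of the integrins, -0.70 ± 0.13 (95% confidence interval -1.01 to -0.38, limma adjusted p = 0.070). Its dimmer probe gave -0.35. Itga9 was at 16393 and 10969 against 18867 and 22497, also without overlap, but its ratios were -0.20 and -1.04, further from 0 in replicate 2, with a mean of -0.62 ± 0.59 (limma adjusted p = 0.30). Of their ligand genes, Vcam1 rose by 0.90 ± 0.06 (limma adjusted p = 0.040), a call lost with the mean of its passing probes (0.85, adjusted p = 0.059) and with separate channels without a replicate block (adjusted p = 0.098). Tnc, the tenascin C gene, fell by 1.39 on the log2 scale (limma adjusted p = 0.021).

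Collagen-binding chains lay on both sides of 0. Itga11, a fibrillar collagen receptor chain of fibroblasts, had 1239 and 1105 in the RNAs labelled Bmp4cKO against 1706 and 1571, a ratio of -0.48 ± 0.03 (limma adjusted p = 0.14). Itga10 was at 0.36 ± 0.28, by a probe that shares 54 positions with the gene's other probe. Itga1 was at 0.28 and -0.24 on the arrays, and Itga2 stood well above background in none of the 4 channels.

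The beta chains other than Itgb4 were mostly near 0. Itgb1, the partner of most alpha chains, had 40937 and 28582 against 35644 and 33333 and a ratio of -0.01 ± 0.30, positive on replicate 1 and negative on replicate 2. Itgb5 was at -0.08 ± 0.04 and Itgb3 at 0.02 ± 0.16. The epithelial Itgb6 was at 0.26 ± 0.09, and its dimmer probe at 0.47. Itgb7, a leukocyte chain that pairs with Itga4, had 480 and 587 in the RNAs labelled Bmp4cKO and 351 and 387 in those labelled control, without overlap, at 0.53 ± 0.10 (limma adjusted p = 0.13), against the direction of Itga4.

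Of the other leukocyte chains, Itgal was at 0.07 ± 0.10, Itgb2 at -0.01 ± 0.04 and Itgam at -0.20 ± 0.12. Itgam's brightest probe holds 10 units of a 2-base repeat, and its 3 probes ran from -0.20 to 0.09, so its level is uncertain. Limma called none of 10 macrophage and leukocyte markers (median 0.14), with Ptprc at -0.80 (limma adjusted p = 0.051) and Mrc1 at 0.40. At an unadjusted limma p under 0.05, 2 of the 10 were higher and 1 lower (7.15% and 7.37% of all genes). Ptprc was called lower in 5 alternatives, with limma adjusted p from 0.015 (a prior with an intensity trend) to 0.048 (the processed signals). Nor did limma call any of 6 megakaryocyte and platelet markers (median 0.17), with Pf4 at 0.70 and Ppbp at 0.60. Of these 6, 2 were higher at an unadjusted limma p under 0.05 (7.15% of all genes were). The chains Itgad, Itgae, Itgax and Itgb2l likewise stood well above background in no channel, and Itgb8 was so in only 1 channel, the control of replicate 2.

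**Figure D3:**
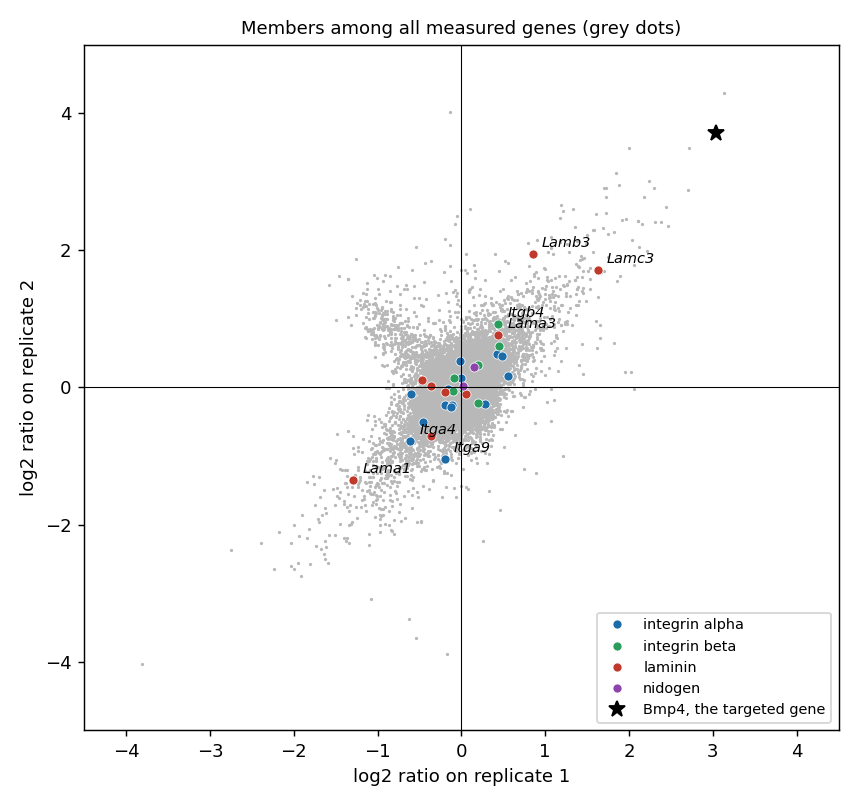
Log2 ratio on replicate 1 (x axis) against that on replicate 2 (y axis) for all 21978 measured genes (grey dots), with the members reported here coloured by family and Bmp4 starred. Lamc3 and Lamb3 lie toward Bmp4 in the upper right and Lama1 in the lower left, while the other members lie closer to the dense middle of all genes.

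The genes around the integrins were read from the same fit, in which 0.887% of all genes were called higher and 1.02% lower. Of 21 focal adhesion and integrin signalling genes, which carry the signal from an occupied integrin to the actin cytoskeleton, limma called none in either direction. Their median was -0.03, with 1 higher and 2 lower at an unadjusted limma p under 0.05 (7.15% and 7.37% of all genes). The largest were the parvin Parvb at 0.62 ± 0.21 (limma adjusted p = 0.11) and Lims2, a partner of integrin-linked kinase, at -0.48 ± 0.04 (limma adjusted p = 0.14). Of 17 integrin ligands other than laminins and collagens, 1 was higher (Vcam1) and 2 were lower, Tnc and Egfl6, an RGD-bearing matrix protein gene that fell by 1.26 ± 0.16 (limma adjusted p = 0.026), and the median was -0.07. At an unadjusted limma p under 0.05, 5 of these ligands were higher and 6 lower (7.15% and 7.37% of all genes). Of 19 other basement membrane genes, 1 was higher and 1 lower with a median of -0.29. At an unadjusted limma p under 0.05, 2 were higher and 8 lower (7.15% and 7.37% of all genes), and 3 were higher and 12 lower on both arrays (28.2% and 30.6% of all genes). The called pair are relatives: Smoc1 rose by 1.48 ± 0.22 (limma adjusted p = 0.023) and Smoc2 fell by 1.43 ± 0.40 (limma adjusted p = 0.035). Both encode SPARC-related calcium-binding matrix proteins.

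**Figure D4:**
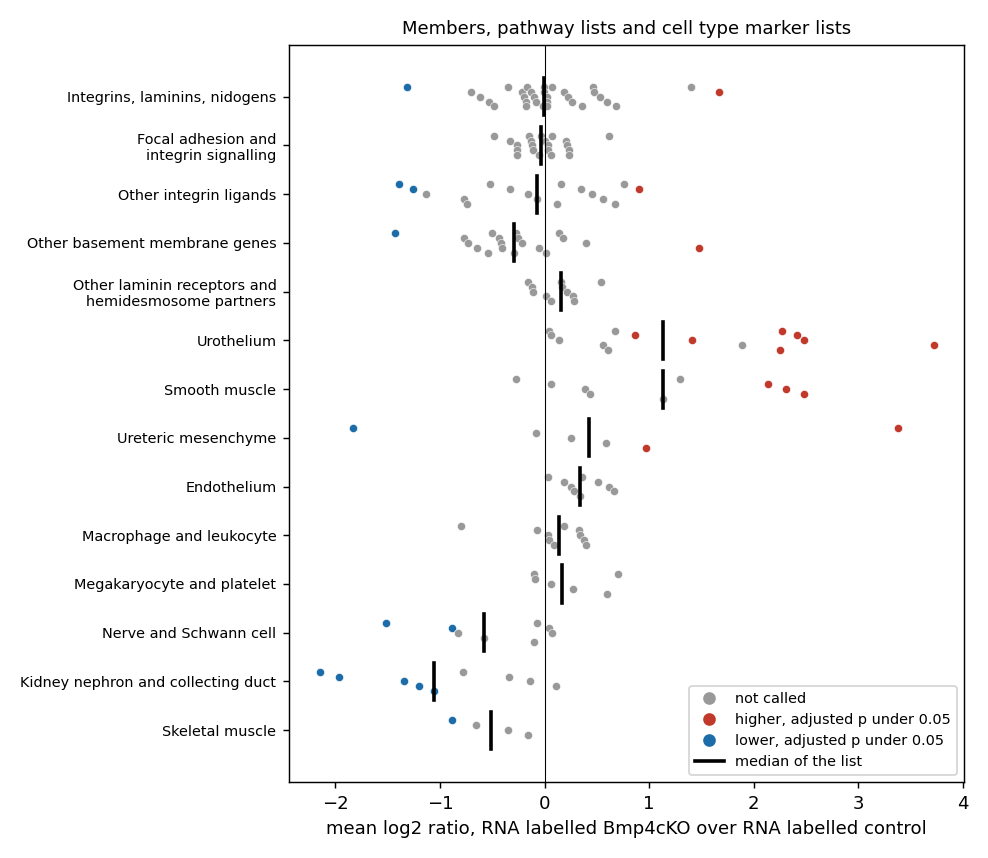
Mean log2 ratio (x axis) of the measured genes reported here in the members, the 4 pathway lists and the 9 cell type marker lists (rows), red where called higher, blue where called lower, grey otherwise, with a black bar at each list's median. The members and the focal adhesion genes centre near 0, with medians of -0.01 and -0.03, while urothelial and smooth muscle markers centre at 1.13 and kidney markers at -1.06.

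Among the smooth muscle markers, Myh11 was at 2.48, Actg2 at 2.31 and Cnn1 at 2.14, all called higher. Not called were Myocd (1.29), Acta2 (1.13), Tagln (0.43), Des (0.39), Smtn (0.06) and Ckm (-0.27). With a robust prior variance in limma the calls of Myh11 (adjusted p = 0.14) and Actg2 (0.13) were lost. The muscle chains Itga7 (-0.35) and Lama2 (-0.02) were not called in either direction. The nerve markers Tubb3 (-1.52) and Elavl3 (-0.89) were lower. In the ureteric mesenchyme list, Aldh1a2, which makes retinoic acid, fell by 1.83 ± 0.46 (limma adjusted p = 0.026), while Bmp4 and Tbx18 were higher.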

How the data were processed

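Ureter RNA was measured on 2 two-colour arrays. Per the file headers, the authors used Agilent Feature Extraction 10.7.3.1 to quantify spots. The deposited spot, background and processed signals are intensities on a linear scale. Per the file headers, the deposited log10 ratios put red over green. The authors' deposited value table holds a score per probe that, set against the scanner values, is a signed fold: in size it fell within 0.01 (log2) of the ratio from the scanner for 99.7% and 99.6% of 26297 probes, it correlated at -1.00 with the dye-label direction on both arrays, and both column medians were 1.00.

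Intensities were background-corrected by normexp (offset 50) and normalized by loess within each array in limma 3.58.1 (R 4.3.3), with control spots at weight 0 and outlier-marked spots left out. A probe was kept where well above background in both channels of 1 label, so that a probe dim in the other label was kept, and the brightest kept probe stood for its gene, for 21978 genes. Of 39429 probes, 31001 were named through RefSeq and 8428 kept the array's name. Ratios were turned by the dye labels and tested with lmFit and eBayes, adjusted by Benjamini-Hochberg over all genes at 0.05. Each gene had 1 residual degree of freedom against 4.03 from the variance shared over genes, which thus weighs most. Normalized intensities are channel levels after loess and Aquantile. The number of arrays limits the precision.

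The numbers pair the samples because RNAs of 1 replicate share an array, so each ratio is already paired. The members, gene lists and alternatives were chosen with earlier results of these data known. Named were every member, Bmp4, Tbx18 and some uncalled urothelial, smooth muscle, endothelial and kidney markers. Named too were, of each list, up to 6 called genes by size of change or else the 2 with the largest change. Of these, 1 member and 1 marker, counted in the totals, are not reported here. Alternatives changed background correction, normalization, filter, choice of probe, prior, pairing and replicates.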

Additional observations from a re-analysis of the deposited data

Results flagged for a closer look

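Of the 33 measured members, 9 had ratios of opposite direction on the 2 arrays, and the difference between the arrays was not tested. Sex label, dye orientation and RNA differ together between the arrays and cannot be told apart. Taken as the log2 ratio of replicate 2 minus that of replicate 1, the difference was positive for the laminin chains Lamb2 (0.58) and Lama5 (0.38), the laminin receptor chain Itga3 (0.40), and for Itgb3 (0.23) and Itgal (0.14). It was negative for the collagen receptor chain Itga1 (-0.52), its partner Itgb1 (-0.42), Lama2 (-0.15) and Itgb2 (-0.05).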

How the results depend on the processing

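Lamc3 and Lama1 were called in 11 of 13 tested alternatives each, with log2 ratios of 1.66 to 1.80 and -1.36 to -1.30. Both calls were lost with median centring and with no normalization. Each gene has 1 probe, well above background in all 4 channels. The alternatives in filter, choice of probe, prior and separate channels therefore reuse its main ratio. Only plain background subtraction, the processed signals, median centring and no normalization could move that ratio. Over all genes, 0 were higher and 1 lower without normalization (108 at an unadjusted limma p under 0.05), where the medians of all genes stood at -0.73 and 0.70 on the arrays. With median centring 0 were called in either direction (1734 unadjusted). In both settings 0 members and 0 pathway genes were called, and without normalization 0 members were 2-fold apart on both arrays. Plain background subtraction gave 339 higher and 388 lower. A prior with an intensity trend gave 612 and 671, with 3 members higher (Lamb3, adjusted p = 0.017, and Itga6, 0.048, beside Lamc3), 2 lower (Itga4, 0.012, beside Lama1) and 12 pathway genes in place of 5. With the replicate block on separate channels the counts were 195 and 225, as in the paired ratio, and no call of a member changed. That setting fits the same paired difference, so its outcome was fixed in advance and adds no separate support among the 13 alternatives. With no replicate block and a dye term they were 195 and 220, and 2 members were higher, Lamb3 (adjusted p = 0.0089) beside Lamc3. Left with a single array, which allows no test, 2 to 4 members were at least 2-fold apart, 4 of them without replicate 1, and Lamb3 was at 1.94 without replicate 1 and 0.85 without replicate 2.

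With no replicate block, the calls of Elavl3 (adjusted p = 0.051) and Myog (0.073) were lost. By the mean of passing probes, Lama2 was at 0.11 and Nid1 at -0.11. Signs of members within 0.02 of 0 also turned: Itgb1 and Itga1 without normalization, Itgb1 and Lama2 with median centring, Itgb2 and Lama2 with processed signals. In the sign of the authors' deposited table every called gene named in the text was reversed: Lamc3 -1.80, Lama1 1.36, Bmp4 -3.41, Tbx18 -0.99, Tnc 1.63, Egfl6 1.29, Vcam1 -0.88, Smoc1 -1.54, Smoc2 1.46, Upk1b -3.97, Upk3a -2.55, Upk2 -2.76, Pparg -2.32, Upk1a -2.36, Krt19 -1.41, Myh11 -2.67, Actg2 -2.36, Cnn1 -2.16, Aldh1a2 1.88, Tubb3 1.70, Elavl3 1.24, Gdnf 2.37, Wnt9b 2.07, Wt1 1.38, Ret 1.47, Lhx1 1.41 and Myog 1.05. The cause of the lost calls was not tested.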
